A study of Mus musculus with 12 samples.

Results

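Complement is a cascade of plasma and cell surface proteins that marks damaged cells and microbes. This report describes 34 of its genes, chosen by name as components, receptors and regulators, in whole mouse kidney. A probe under the gene's own name was found for 33 of them, and 32 were measurable among the 25778 genes of the arrays. The exceptions were C1s, which had no probe under that name, and Vsig4, a complement receptor of resident macrophages, whose probe was above background on 0 of the 12 arrays. The kidneys came from male mice on a C57/6J background, 3 per group. The groups were Jaml knockout (KO) mice 24 h after renal ischemia-reperfusion injury (IRI), KO mice after a sham operation, wild-type (WT) mice 24 h after IRI, and WT mice after a sham operation. IRI means that the vessels of both kidneys were closed for a while and opened again. How long they were closed is given as 40 min in the description of the series and as 30 min in the treatment protocol, and which holds was not settled here. The labels name no cell type to which the Jaml knockout is restricted. Jaml encodes a junctional adhesion molecule found on leukocytes.

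The cascade starts along 3 routes. In the classical route C1q binds to targets and activates the proteases C1r and C1s, which cleave C4 and C2. In the lectin route sugar-binding proteins activate the proteases Masp1 and Masp2, which act on the same C4 and C2. The alternative route amplifies both through C3, factor B, factor D and properdin. All routes cleave C3, after which the terminal components C5 to C9 can form a pore, and the fragments C3a and C5a attract leukocytes through their receptors. Liver makes most circulating complement, while kidney tubule cells and macrophages are known local sources, C3 in tubules and C1q in macrophages among them.

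Levels are log2 signals minus the 75th percentile of the same array, so a negative level means dimmer than that percentile. Levels of different probes cannot be set against each other. Differences are log2 fold changes ± the standard error (SE) from a limma fit over all 12 arrays, with p-values adjusted by Benjamini-Hochberg over all 25778 genes and a threshold of 0.05. All 6 KO arrays lay on one slide and all 6 WT arrays on another, so genotype and slide cannot be told apart in any comparison of KO with WT. IRI and sham were compared within a slide. Jaml, measured by a probe under its older name Amica1 on chromosome 9, had levels of -3.54, -2.59 and -3.18 in KO sham kidneys, against -0.26, -0.26 and -0.44 in WT sham kidneys (log2 fold change -2.79 ± 0.56, limma adjusted p = 0.015). It was 1.57 lower on the log2 scale in KO IRI than in WT IRI kidneys, which was not past the threshold (log2 fold change -1.57 ± 0.56, adjusted p = 0.15). Of 10 markers of kidney segments, all 10 were measured. Slc5a2 of the proximal tubule was higher in KO sham than in WT sham kidneys, and the score of the 10 (the mean of their levels, each centred on its mean over 12 arrays) was 0.30 to 0.41 on KO sham and 0.02 to 0.08 on WT sham arrays. After injury the proximal tubule genes Lrp2, Cubn and Slc34a1 fell in both genotypes and Slc5a2 fell in KO kidneys, so 4 of 10 fell in KO IRI relative to KO sham and 3 of 10 in WT IRI relative to WT sham kidneys. Over all genes 4.06% and 5.91% fell past the threshold in these comparisons, in that order. The part of the kidney segment genes in the complement values was not tested. WT IRI replicate 1 stood apart from its group, with correlations of 0.968 and 0.976 over all genes, against at least 0.987 for every other pair within a group. The root mean square distance of that array to its group's mean was 0.578 over all genes, and the other 11 arrays had 0.205 to 0.432. The same distance of KO sham replicate 2 over all genes was 0.296, but over the complement genes it was 0.650, against 0.380 and 0.328 for KO sham replicates 1 and 3.

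The plainest pattern was in the sham-operated kidneys. Complement genes were lower in KO sham than in WT sham kidneys along the classical route and at C3. C4 and C3 differed most. Of 32 genes, 13 were lower and 1 was higher past the threshold, and over all genes 8.90% passed in either direction, 3.75% lower and 5.15% higher. The median log2 fold change was -0.53 over the 32 genes and 0.12 over all genes. For 19 of the 32 genes the 2 groups had no common range, which held for 42.8% of all genes. In bulk kidney a smaller number of expressing cells and less RNA per cell cannot be told apart.

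**Figure D1:**
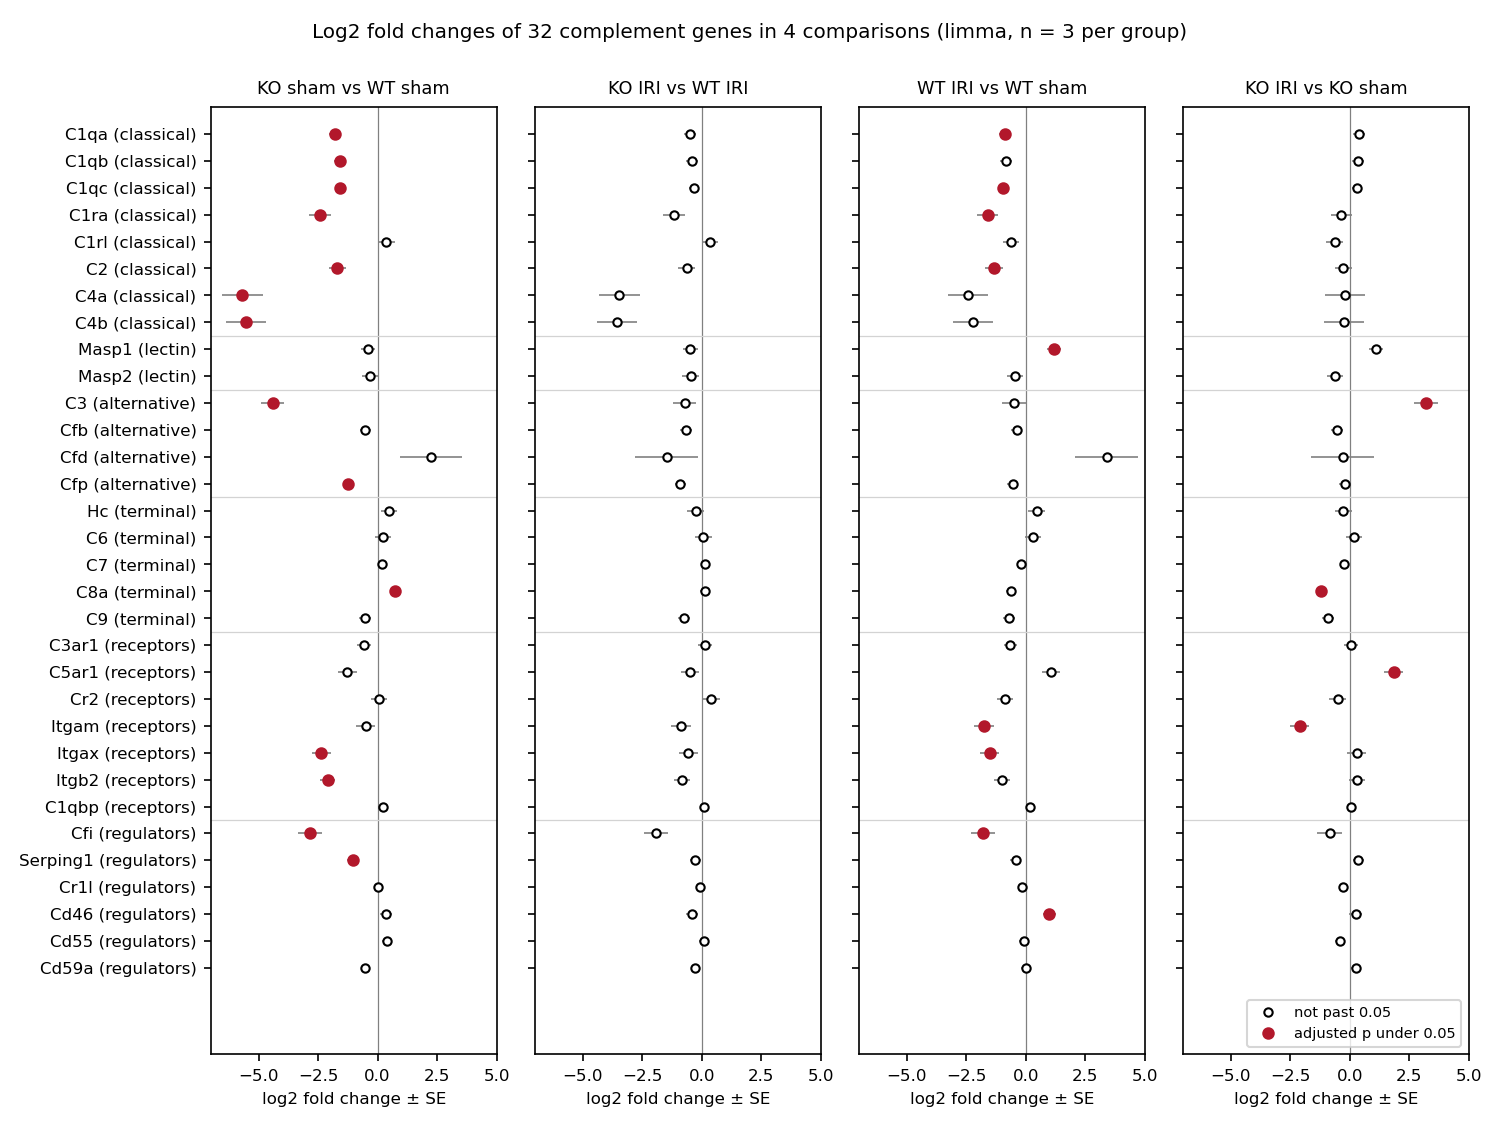
Log2 fold changes ± SE (horizontal axis) of 32 complement genes (vertical axis, grouped by role) in 4 comparisons, with n = 3 kidneys per group. Filled points passed an adjusted p of 0.05: 14 genes for KO sham vs WT sham, 0 for KO IRI vs WT IRI, 9 for WT IRI vs WT sham and 4 for KO IRI vs KO sham.

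The 3 chains of C1q, the recognition protein of the classical route, lie next to each other on chromosome 4 and moved alike. C1qa had levels of 0.37, 0.52 and 0.76 in KO IRI kidneys, 0.02, 0.58 and -0.16 in KO sham kidneys, 1.53, 0.62 and 1.00 in WT IRI kidneys, and 1.89, 1.80 and 2.11 in WT sham kidneys. Every WT sham array was above every other array. C1qb had levels of -0.20, 0.04 and 0.27 in KO IRI, -0.48, 0.11 and -0.59 in KO sham, 0.94, 0.01 and 0.36 in WT IRI, and 1.19, 1.12 and 1.49 in WT sham kidneys. C1qc had 0.94, 1.19 and 1.37 in KO IRI, 0.79, 1.32 and 0.51 in KO sham, 1.56, 1.42 and 1.49 in WT IRI, and 2.33, 2.37 and 2.60 in WT sham kidneys. All 3 fell in KO sham relative to WT sham kidneys. The log2 fold changes were -1.78 ± 0.25 for C1qa (limma adjusted p = 0.0044), -1.59 ± 0.26 for C1qb (adjusted p = 0.0072) and -1.56 ± 0.20 for C1qc (adjusted p = 0.0032).

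C4 is the protein that C1s cleaves, and mice carry the near copies C4a and C4b on chromosome 17. The deposited probe annotation pairs the C4a probe with the transcripts of both genes, so its signal cannot be assigned to C4a alone. The C4b probe used for the levels is paired with C4b only, and a second C4b probe with both genes. The 2 shared probes are shown 5′ to 3′ because they decide what can be said of C4a. The C4a probe maps to chr17:34948806-34949824 on the minus strand (mm9), across a gap, and the second C4b probe to chr17:34866361-34866420 on the minus strand (mm9). No letters are capitalised.
C4a probe: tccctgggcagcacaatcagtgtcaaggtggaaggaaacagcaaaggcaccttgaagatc
C4b second probe: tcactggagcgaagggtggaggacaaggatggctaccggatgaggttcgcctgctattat

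C4b had levels of -0.36, -0.28 and 0.55 in KO IRI kidneys, -0.57, 2.01 and -0.80 in KO sham kidneys, 5.28, 2.16 and 3.14 in WT IRI kidneys, and 5.83, 5.85 and 5.57 in WT sham kidneys. The KO arrays all lay below the WT arrays, and KO sham replicate 2 was the highest of the KO arrays. The signal of the shared C4a probe was -5.55, -5.73 and -4.98 in KO IRI, -6.07, -3.44 and -6.12 in KO sham, -0.17, -3.61 and -2.09 in WT IRI, and 0.45, 0.58 and 0.39 in WT sham kidneys. It was well above background on 1 of the 3 KO sham arrays and on all arrays of the other groups. C4b was 46.4-fold lower in KO sham than in WT sham kidneys (log2 fold change -5.54 ± 0.83, limma adjusted p = 0.0053). The second C4b probe gave a log2 fold change of -5.48, and the C4a probe gave -5.68 ± 0.85 (adjusted p = 0.0053). With normexp background correction the C4a probe gave -3.56 (adjusted p = 0.0029), so its size depends on how signal near background is treated. Leaving out KO sham replicate 2, the C4b log2 fold change was -6.44 (adjusted p = 0.0031), and no size is given for C4a, since neither remaining KO sham array was well above background for it.

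C1ra, which encodes the protease C1r, and C2, the protease part of the C3-cleaving enzyme, had the same order of groups. C1ra had levels of 0.92, 1.36 and 1.30 in KO IRI, 1.29, 1.74 and 1.61 in KO sham, 3.72, 1.68 and 1.69 in WT IRI, and 3.85, 3.91 and 4.14 in WT sham kidneys. C2 had 3.78, 3.79 and 3.48 in KO IRI, 4.07, 3.91 and 3.87 in KO sham, 5.39, 3.84 and 3.71 in WT IRI, and 5.47, 5.52 and 5.93 in WT sham kidneys. For both genes WT IRI replicate 1 lay close to the WT sham arrays and replicates 2 and 3 close to the KO arrays. In KO sham relative to WT sham kidneys C1ra fell by 2.42 ± 0.45 on the log2 scale (limma adjusted p = 0.012) and C2 by 1.69 ± 0.37 (adjusted p = 0.022). The call for C1ra was lost without KO sham replicate 1, and that for C2 without any 1 of the 6 sham arrays. C1ra has a near copy, C1rb, which is described with the other complement genes below. C1rl, a C1r-like protease, was the 1 classical gene of 8 not past the threshold (log2 fold change 0.37 ± 0.35, adjusted p = 0.57).

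The RefSeq gene table gives C1s as an older name of C1s1, the C1s protease, and the probe named C1s1 is given here without being counted. Its levels were 0.27, 0.78 and 1.05 in KO IRI, 0.66, 1.19 and 1.20 in KO sham, 1.52, 0.72 and 0.58 in WT IRI, and 1.81, 1.91 and 2.13 in WT sham kidneys. The WT sham arrays were again the highest. The log2 fold change was -0.93 ± 0.28 for KO sham against WT sham, not past the threshold (limma adjusted p = 0.066), and -1.01 ± 0.28 for WT IRI against WT sham, which was past it (adjusted p = 0.042).

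**Figure D2:**
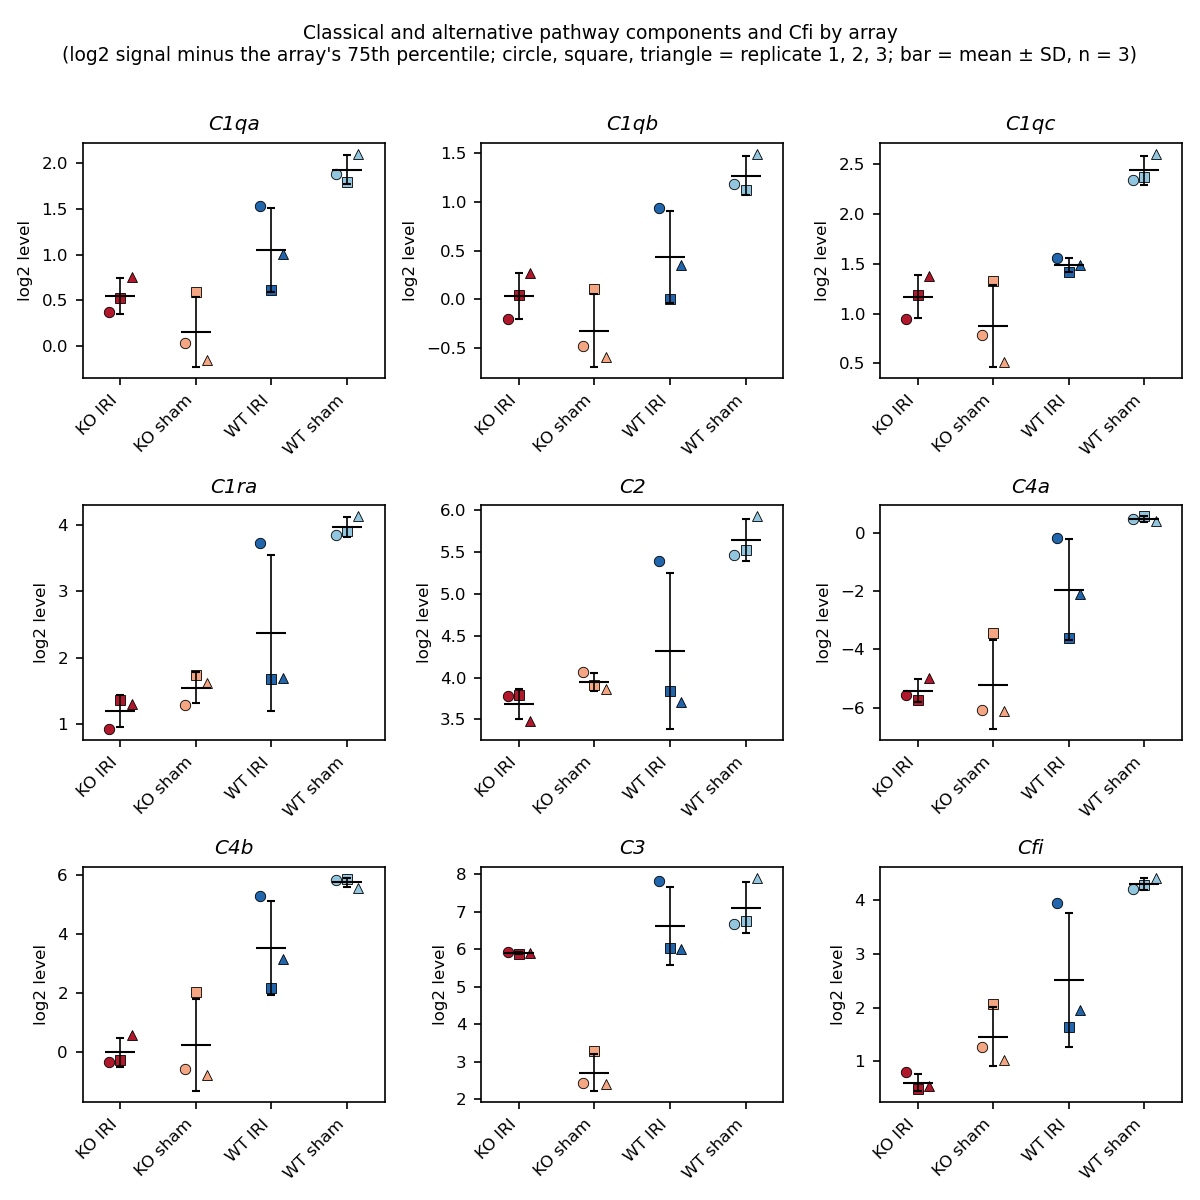
Levels (log2 signal minus the array's 75th percentile, vertical axes) of 9 complement genes on each array, with KO IRI, KO sham, WT IRI and WT sham from left to right. Bars are means ± SD of 3 kidneys. The WT sham arrays are the highest for C1qa, C1qb, C1qc, C1ra, C2, C4a, C4b and Cfi, while C3 has its lowest arrays in KO sham at 2.39 to 3.27.

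C3, the protein on which all routes converge, differed from the classical genes in the injured kidneys. It had levels of 5.94, 5.89 and 5.90 in KO IRI kidneys, 2.44, 3.27 and 2.39 in KO sham kidneys, 7.82, 6.04 and 6.00 in WT IRI kidneys, and 6.68, 6.75 and 7.91 in WT sham kidneys. Only the KO sham arrays were low, and the KO IRI arrays lay just below the lowest WT array. C3 was 21.3-fold lower in KO sham than in WT sham kidneys (log2 fold change -4.41 ± 0.49, limma adjusted p = 0.0025). It was 9.21-fold higher in KO IRI than in KO sham kidneys (log2 fold change 3.20 ± 0.49, adjusted p = 0.0069). These comparisons share the KO sham arrays. In WT IRI against WT sham kidneys the C3 log2 fold change was -0.50 ± 0.49 (adjusted p = 0.55). A second C3 probe gave log2 fold changes of -4.15, 2.86 and -0.40 for the same 3 comparisons.

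Promoter sequences, from 250 bases before to 50 after the gene start, were found in the RefSeq table (GRCm38.p6) for 24 of the 34 genes by symbol. None was found for C1qa, C1s, C2, C4a, C4b, Masp1, Cfb, Itgb2, Cfi and Serping1, so these genes were not searched. Both strands were searched for 4 short patterns of factors known from inflammation, chosen with the expression values known. TTCNNNGAA, the pattern of STAT factors, was in 4 of the 24 (C1ra, C7, C8a and Masp2), and in 8.30% of all 32851 promoters. GAAANNGAAA, the interferon response pattern, was in 2 (Cd46 and Cd59a), and in 3.44% of all. TTGCNNAA, a C/EBP pattern, was in 4 (C1ra, C1rl, C3 and C9), and in 10.8% of all. GGGANNTTCC, an NF-kappa-B pattern, was in 0 of the 24 and in 1.47% of all. The promoters of C3 and C1ra are shown because both genes fell in KO sham kidneys and C1ra holds matches to 2 of the patterns. The C3 window is chr17:57228087-57228386, minus strand, and the C1ra window is chr6:124512371-124512670, plus strand. Capitals mark the matches, TTGCNNAA in C3, and TTGCNNAA (on the other strand) and then TTCNNNGAA in C1ra. A match describes letters and is no evidence of binding.
C3 promoter: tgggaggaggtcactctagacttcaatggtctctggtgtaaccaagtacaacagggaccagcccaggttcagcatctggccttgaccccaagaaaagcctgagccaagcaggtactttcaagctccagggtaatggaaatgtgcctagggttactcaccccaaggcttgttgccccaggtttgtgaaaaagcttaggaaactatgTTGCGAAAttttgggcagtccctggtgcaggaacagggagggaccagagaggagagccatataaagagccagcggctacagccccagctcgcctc
C1ra promoter: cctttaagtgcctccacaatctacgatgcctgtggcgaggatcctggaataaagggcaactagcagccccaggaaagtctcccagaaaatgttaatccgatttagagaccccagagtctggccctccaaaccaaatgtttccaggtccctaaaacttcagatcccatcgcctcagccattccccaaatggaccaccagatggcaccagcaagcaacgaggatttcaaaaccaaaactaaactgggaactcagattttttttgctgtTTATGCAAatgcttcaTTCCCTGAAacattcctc

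The other alternative route genes differed less or were more variable. Cfp encodes properdin, which stabilises the C3-cleaving enzyme. Its levels were -0.58, -1.50 and -0.85 in KO IRI, -0.89, -0.60 and -0.81 in KO sham, -0.32, 0.21 and -0.14 in WT IRI, and 0.47, 0.66 and 0.26 in WT sham kidneys. Every KO array lay below every WT array, and Cfp fell by 1.23 ± 0.23 on the log2 scale in KO sham relative to WT sham kidneys (limma adjusted p = 0.012). This call was lost without KO sham replicate 1 and without KO sham replicate 3. Cfb, which encodes factor B, lay between 5.39 and 6.87 on all arrays and passed in no comparison.

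Cfd encodes factor D (adipsin), a protease that fat cells make in quantity. Its levels were 0.76, -1.81 and 1.72 in KO IRI, -0.68, 2.31 and -0.07 in KO sham, 1.45, 3.45 and 0.17 in WT IRI, and 0.03, -4.12 and -1.06 in WT sham kidneys. The spread within groups was wide, and Cfd passed in no comparison. The score of 10 adipocyte markers, the mean of their levels after centring each gene on its mean over 12 arrays, was 0.06, -0.63 and 0.81 in KO IRI, -0.83, 1.16 and -0.55 in KO sham, 1.26, 2.52 and 0.09 in WT IRI, and -0.83, -1.84 and -1.21 in WT sham kidneys. Within each group the array with the highest adipocyte score was also highest for Cfd. The part of fat tissue in the Cfd levels was not tested.

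Among the receptors, Itgax and Itgb2 were the ones that passed between the sham groups. Itgb2 encodes the beta chain that the alpha chains of Itgam (receptor 3) and Itgax (receptor 4) share. Itgax had levels of -1.63, -1.11 and -1.05 in KO IRI, -1.82, -0.82 and -2.02 in KO sham, -1.38, -0.06 and -0.67 in WT IRI, and 1.08, 1.08 and 0.30 in WT sham kidneys. Itgb2 had -1.94, -1.65 and -1.09 in KO IRI, -1.996, -1.535 and -2.055 in KO sham, -0.96, -0.59 and -0.69 in WT IRI, and 0.77, 0.50 and -0.55 in WT sham kidneys. Both were highest in WT sham kidneys. In KO sham relative to WT sham kidneys Itgax fell by 2.37 ± 0.40 (limma adjusted p = 0.0078) and Itgb2 by 2.10 ± 0.33 (adjusted p = 0.0064) on the log2 scale. A dimmer Itgax probe, well above background on 8 of 12 arrays, gave -0.45, and the mean over both probes fell by 1.41 (adjusted p = 0.0041).

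Itgam did not follow its partner chain. Its levels were 0.63, -0.84 and 0.70 in KO IRI, 1.83, 2.99 and 2.01 in KO sham, 0.75, 1.16 and 1.17 in WT IRI, and 2.92, 2.80 and 2.62 in WT sham kidneys. All 6 IRI arrays lay below all 6 sham arrays. Itgam passed in both genotypes after injury, with log2 fold changes of -2.11 ± 0.41 in KO IRI against KO sham (limma adjusted p = 0.017) and -1.75 ± 0.41 in WT IRI against WT sham (adjusted p = 0.024). In KO sham against WT sham kidneys it was -0.50 ± 0.41 (adjusted p = 0.50). A second, dimmer Itgam probe disagreed, with 0.17 in KO and -0.34 in WT kidneys for IRI against sham, so the direction of Itgam rests on the brighter probe. The mean over both probes gave -0.97 in KO (adjusted p = 0.045) and -1.04 in WT kidneys (adjusted p = 0.024). The KO call was lost without KO sham replicate 2 (adjusted p = 0.055) and in a fit of only the groups compared.

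C5ar1, the receptor through which C5a attracts neutrophils and macrophages, was the 1 receptor gene higher after injury. Its levels were -3.81, -3.27 and -2.24 in KO IRI, -5.02, -4.98 and -4.85 in KO sham, -3.07, -2.43 and -2.33 in WT IRI, and -3.18, -3.61 and -4.26 in WT sham kidneys. KO sham arrays were the lowest of all. C5ar1 rose by 1.85 ± 0.39 on the log2 scale in KO IRI relative to KO sham kidneys (limma adjusted p = 0.023), a call lost under 6 of 22 alternatives, each 1 of the 3 KO sham arrays left out among them. With normexp background correction its log2 fold change was 0.70 (adjusted p = 0.074). In WT IRI against WT sham it was 1.07 ± 0.39 (adjusted p = 0.099), and in KO sham against WT sham -1.27 ± 0.39 (adjusted p = 0.072). The S100a8 and S100a9 genes of neutrophils rose beside it in KO IRI relative to KO sham kidneys, by 4.09 and 3.84 on the log2 scale. Of the 11 neutrophil markers measured only 2 passed there, against 6.18% of all genes in either direction. The median log2 fold change of the 11 was 1.09. The means of Csf3r, Ly6g and Camp were lower in KO IRI than in KO sham kidneys.

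**Figure D3:**
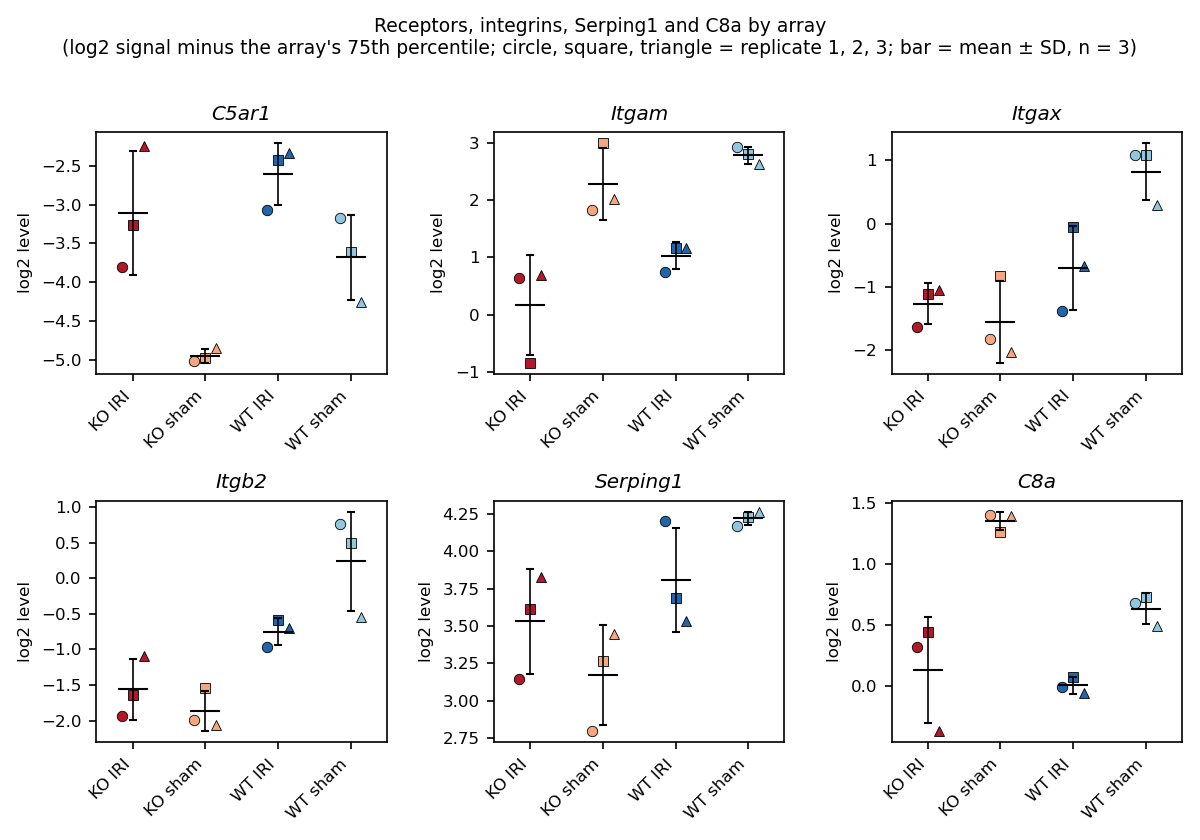
Levels (log2 signal minus the array's 75th percentile, vertical axes) of C5ar1, Itgam, Itgax, Itgb2, Serping1 and C8a on each array, with KO IRI, KO sham, WT IRI and WT sham from left to right and bars for means ± SD of 3 kidneys. Itgam splits the arrays by injury, Itgax is highest in WT sham, and C8a is highest in KO sham at 1.27 to 1.40.

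Of the regulators, Cfi and Serping1 were lower in KO sham kidneys. Cfi encodes factor I, the protease that inactivates C3b and C4b. It had levels of 0.79, 0.48 and 0.54 in KO IRI, 1.26, 2.07 and 1.03 in KO sham, 3.95, 1.64 and 1.95 in WT IRI, and 4.21, 4.28 and 4.42 in WT sham kidneys. WT IRI replicate 1 lay near the WT sham arrays, and KO sham replicate 2 lay above WT IRI replicates 2 and 3. Cfi was 7.20-fold lower in KO sham than in WT sham kidneys (log2 fold change -2.85 ± 0.51, limma adjusted p = 0.0098). Serping1 encodes the C1 inhibitor, which blocks C1r and C1s. It had levels of 3.15, 3.62 and 3.83 in KO IRI, 2.80, 3.27 and 3.45 in KO sham, 4.20, 3.69 and 3.53 in WT IRI, and 4.17, 4.23 and 4.26 in WT sham kidneys. It fell by 1.05 ± 0.23 in KO sham relative to WT sham kidneys on the log2 scale (adjusted p = 0.024), a call lost without KO sham replicate 1 or any 1 WT sham array. The membrane regulators did not pass there: the log2 fold changes were 0.02 ± 0.12 for Cr1l, 0.36 ± 0.26 for Cd46 and 0.41 ± 0.21 for Cd55 (decay accelerating factor), and -0.51 ± 0.19 for Cd59a, which blocks the pore (adjusted p = 0.12). Dimmer probes gave 0.76, 0.47 and 0.22 for Cd55 and -0.16 for Cd59a, so the sizes depend on the probe.

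Terminal components showed 1 difference between sham groups, in C8a, a chain of the pore protein C8. It had levels of 0.32, 0.44 and -0.37 in KO IRI, 1.40, 1.27 and 1.40 in KO sham, -0.0036, 0.08 and -0.05 in WT IRI, and 0.68, 0.73 and 0.49 in WT sham kidneys. KO sham arrays were the highest. C8a was higher by 0.72 ± 0.19 on the log2 scale in KO sham than in WT sham kidneys (limma adjusted p = 0.043), a call lost under 13 of 22 alternatives. It fell by 1.22 ± 0.19 in KO IRI relative to KO sham kidneys (adjusted p = 0.0069), and a second probe gave -1.05. Hc, which encodes C5, was well above background on 4 of 12 arrays, C6 on 10 and C9 on 11. These 3 and C7 passed in no comparison.

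**Figure D4:**
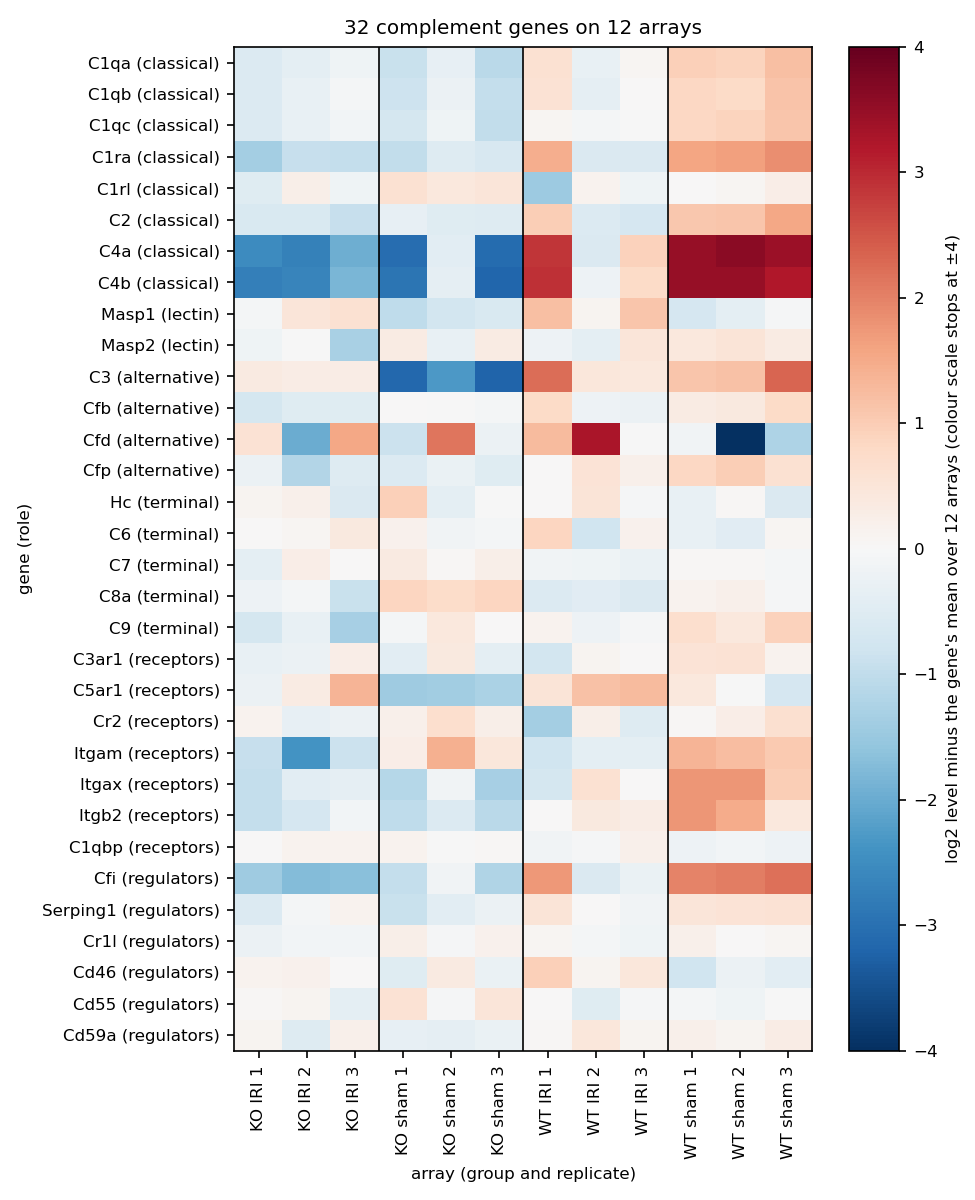
Levels of 32 complement genes (rows, by role) on 12 arrays (columns, KO IRI, KO sham, WT IRI and WT sham from left to right), each as log2 level minus the gene's mean over the 12 arrays, with colours that stop at 4 in either direction. C4a, C4b, C1ra, C2 and Cfi are high on the 3 WT sham arrays and on WT IRI replicate 1, and C3 is low on the 3 KO sham arrays.

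In WT kidneys injury went with lower levels of several classical genes, in a comparison that shares the WT sham arrays with the one above. In WT IRI relative to WT sham kidneys 7 of 32 were lower and 2 higher past the threshold, against 12.0% of all genes in either direction (5.91% lower, 6.10% higher). The median log2 fold change was -0.58 over the 32 genes and -0.0062 over all genes, and 20 of 32 genes had no overlap between groups, against 32.3% of all. Beside Itgam, the genes that fell were C1qa (-0.88 ± 0.25, limma adjusted p = 0.048), C1qc (-0.95 ± 0.20, adjusted p = 0.017), C1ra (-1.60 ± 0.45, adjusted p = 0.046), C2 (-1.33 ± 0.37, adjusted p = 0.043), Itgax (-1.52 ± 0.40, adjusted p = 0.035) and Cfi (-1.79 ± 0.51, adjusted p = 0.046), all as log2 fold changes. C4b had a larger log2 fold change, -2.23 ± 0.83, that was not past the threshold (adjusted p = 0.11). No complement gene passed when WT sham replicate 1, WT sham replicate 2 or WT IRI replicate 3 was left out, and 3.42%, 3.35% and 4.68% of all genes then did. With WT IRI replicate 1 left out, 9 complement genes passed, 5 of them among the 9 found with every array, and 13.5% of all genes passed. C1ra (-2.28) and Cfi (-2.51) then had larger log2 fold changes. C4b (-3.10, adjusted p = 0.028), C4a (-3.33, adjusted p = 0.024), C1qb (-1.09, adjusted p = 0.019) and Cfb (-0.70, adjusted p = 0.016) were gained, while Cd46, Itgam, Itgax and Masp1 were lost.

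Masp1 and Cd46 were the genes higher in WT IRI kidneys. Masp1, a protease of the lectin route, had levels of -0.68, -0.13 and 0.03 in KO IRI, -1.60, -1.32 and -1.20 in KO sham, 0.60, -0.49 and 0.53 in WT IRI, and -1.27, -0.98 and -0.66 in WT sham kidneys. Its IRI arrays lay above the sham arrays in both genotypes. The log2 fold change was 1.18 ± 0.30 in WT IRI against WT sham (limma adjusted p = 0.032) and 1.11 ± 0.30 in KO IRI against KO sham (adjusted p = 0.059). The 2 dimmer kept probes of Masp1 gave 0.14 and 0.32 for the WT comparison, and the mean over the 3 gave 0.55 (adjusted p = 0.34), so the call rests on the brightest probe. Cd46, whose protein helps factor I inactivate C3b and which is known mainly from the testis in mice, had levels of -3.83, -3.81 and -3.97 in KO IRI, -4.47, -3.62 and -4.25 in KO sham, -3.02, -3.87 and -3.53 in WT IRI, and -4.79, -4.23 and -4.40 in WT sham kidneys. It rose by 1.00 ± 0.26 on the log2 scale in WT IRI relative to WT sham kidneys (adjusted p = 0.036), and 2 further probes gave 0.72 and 1.05. With normexp background correction it was 0.42 (adjusted p = 0.12).

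After injury in KO kidneys C3 and C5ar1 were higher, and C8a and Itgam lower. This comparison shares the KO sham arrays with that of the sham groups. These 4 of 32 genes passed in KO IRI relative to KO sham kidneys, against 6.18% of all genes in either direction (2.12% higher, 4.06% lower). The median log2 fold change was -0.23 over the 32 genes and -0.081 over all genes, and 12 of 32 genes had no overlap between groups, against 35.8% of all. None of the 8 classical genes passed, and C1qa, C1qb and C1qc had log2 fold changes of 0.40 ± 0.25, 0.36 ± 0.26 and 0.30 ± 0.20. C4b was -0.24 ± 0.83, within the spread of the KO sham arrays. Without KO sham replicate 2, C3 (3.49, limma adjusted p = 0.018) and C8a (-1.27, adjusted p = 0.025) passed and the other 2 did not, and 2.86% of all genes passed. With WT IRI replicate 1 left out, 7 passed, the added ones being C1rl, Cfb and Masp1, while 12.6% of all genes passed.

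Between the injured kidneys no complement gene passed. In KO IRI against WT IRI kidneys 0 of 32 genes passed in the limma fit, against 1.96% of all genes in either direction (0.919% higher, 1.04% lower). An unadjusted p under 0.05 was found for 8 of the 32. The share of all genes under that unadjusted p is not given here, so the 8 are not read as particular to complement genes. No overlap between groups was found for 11 of 32 genes, against 21.8% of all. The median log2 fold change was -0.47 over the 32 genes and 0.039 over all genes. The lowest adjusted p-values were those of C4b (log2 fold change -3.55 ± 0.83, adjusted p = 0.062), C4a (-3.46 ± 0.85, adjusted p = 0.070), Cfp (-0.89 ± 0.23, adjusted p = 0.082) and Cfi (-1.91 ± 0.51, adjusted p = 0.086). The C3 difference was -0.71 ± 0.49 (adjusted p = 0.42). C4a and C4b passed without KO sham replicate 2, which lies outside this comparison and enters only through the shared spread (adjusted p = 0.045 and 0.033). C4a, C4b and Cfi passed without WT IRI replicate 2, and Cfp without KO IRI replicate 1 (-1.10, adjusted p = 0.049). In these 3 fits 1.56%, 3.75% and 2.15% of all genes passed.

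Whether the injury response differed between genotypes was tested with the interaction, the log2 fold change of IRI over sham in KO kidneys minus the one in WT kidneys, in which an additive slide effect cancels. In the limma fit 0 of 32 genes passed, against 0.0698% of all genes in either direction (0.0194% higher, 0.0504% lower). An unadjusted p under 0.05 was found for 7 of the 32. The 0.0698% is for adjusted p, and the share of all genes under that unadjusted p is not given here. The 7 are therefore not read as particular to complement genes. The median was 0.29 over the 32 genes and -0.091 over all genes. C3 had the largest positive value, 3.70 ± 0.70 on the log2 scale (adjusted p = 0.15), followed among those with an unadjusted p under 0.05 by Itgax (1.81 ± 0.56, adjusted p = 0.37), Itgb2 (1.29 ± 0.47, adjusted p = 0.43) and C1qa (1.28 ± 0.36, adjusted p = 0.32). None of these differences in response passed with every array in the fit. Leaving out WT IRI replicate 1, the interaction passed for C3 (4.30, adjusted p = 0.0085), C1ra (1.93, adjusted p = 0.010) and C2 (1.60, adjusted p = 0.017), when 0.574% of all genes passed.

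The measured genes that passed in none of the comparisons were C1rl, Masp2, Cfb, Cfd, Hc, C6, C7, C9, Cr1l, Cd55, Cd59a and 3 of the receptors. These were C3ar1 (for C3a), Cr2 (for C3d, on B cells) and C1qbp, a C1q-binding protein found mostly in mitochondria. C1qbp had the narrowest range, 4.97 to 5.35 over the 12 arrays. Of the 28 complement genes well above background on all 12 arrays, 12 were lower and 1 higher in KO sham than in WT sham kidneys, with C4a the only call outside these 28. Among all 21471 genes well above background on all 12 arrays, 8.504% passed in that comparison in either direction.

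A further list held 28 complement genes, of which 21 were measured. In KO sham relative to WT sham kidneys 3 fell and 1 rose, against 8.90% of all genes past the threshold, and the median was -0.025. C1rb, the near copy of C1ra, fell by 2.60 ± 0.44 on the log2 scale (limma adjusted p = 0.0082), and whether each probe also binds the other's transcript was not tested. C1s2, a near copy of C1s1, fell by 0.99 ± 0.26 (adjusted p = 0.044) and C5ar2, the second C5a receptor, by 0.61 ± 0.15 (adjusted p = 0.034). C8g, the gamma chain of C8, rose by 0.91 ± 0.18 (adjusted p = 0.014), the direction of C8a.

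After injury the same list gave 3 genes higher and 5 lower in WT IRI relative to WT sham kidneys, where 12.0% of all genes passed. Ptx3, a pentraxin that binds C1q, was at least 2.66-fold higher (limma adjusted p = 0.0072), since 0 of 3 WT sham arrays had it well above background. Probes were kept if well above background on at least 3 of 12 arrays. Ptx3 would not have been kept without the 3 WT IRI arrays, where it was high, so its adjusted p is not independent of that choice. Mbl2, a mannose-binding lectin, fell by 2.21 ± 0.50 (adjusted p = 0.022), C1rb by 1.90 ± 0.44 (adjusted p = 0.024), and Clu, an inhibitor of the pore, rose by 1.36 ± 0.15 on the log2 scale (adjusted p = 0.0014). In KO IRI relative to KO sham kidneys 1 was higher and 3 lower, and 6.18% of all genes passed. Mbl2 fell by 2.72 ± 0.50 (adjusted p = 0.014), Colec11, a collectin that starts the lectin route, by 1.78 ± 0.45 (adjusted p = 0.046) and C8g by 0.95 ± 0.18 (adjusted p = 0.015), while Cd93, a membrane protein once proposed as a C1q receptor, rose by 0.68 ± 0.15 (adjusted p = 0.028). Between the injured groups Csmd3 alone of the 21 passed, against 1.96% of all genes. It was at least 1.20-fold higher in KO IRI than in WT IRI kidneys (adjusted p = 0.030), on 2 KO IRI arrays and no WT IRI array above background. Csmd3 was well above background on 3 of 12 arrays, all from KO kidneys. It was thus kept only through the genotype where it was higher, and its adjusted p is not independent of that choice.

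Interferon-induced genes were also lower in KO sham kidneys. Of 16 listed genes 13 fell in KO sham relative to WT sham kidneys, 7 in WT IRI relative to WT sham, 3 in KO IRI relative to WT IRI and 1 in KO IRI relative to KO sham. Over all genes 3.75%, 5.91%, 1.04% and 4.06% fell past the threshold in these comparisons, in that order. The list was chosen with earlier results of these data known. The score of the 16 genes was -1.57 to -1.45 on KO IRI arrays, -1.45 to -0.44 on KO sham arrays, -0.35 to 1.28 on WT IRI arrays and 1.78 to 3.31 on WT sham arrays. WT IRI replicate 1 had the 1.28 and KO sham replicate 2 the -0.44, the arrays on which C4b was high for their groups. Their part in the complement values was not tested.

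The marker counts below stand beside the shares of all genes past the threshold in either direction. These were 8.90% in KO sham against WT sham and 12.0% in WT IRI against WT sham kidneys. In KO IRI kidneys they were 6.18% against KO sham and 1.96% against WT IRI. Counts near these shares are not read as particular to a cell type. Of 13 macrophage and monocyte markers measured, 3 fell in KO sham relative to WT sham kidneys (Fcgr1, Ly6c2 and Aif1), and the score was -0.28 to 0.10 on KO IRI, -0.65 to -0.14 on KO sham, -0.07 to 0.28 on WT IRI and 0.35 to 0.46 on WT sham arrays. Timd4 was well above background on 0 of 12 arrays. In WT IRI relative to WT sham kidneys 2 rose (Cd14 and Cd68) and 3 fell, and in KO IRI relative to KO sham kidneys 1 rose and 1 fell. Of 11 neutrophil markers 3 fell in KO sham relative to WT sham kidneys, while 6 rose and 1 fell in WT IRI relative to WT sham and 2 rose in KO IRI relative to KO sham. In KO IRI relative to WT IRI kidneys 3 neutrophil markers fell (Retnlg, Ly6g and Mmp8), with a median of -2.29 over the 11. Of 6 B cell markers 3 fell in KO IRI relative to KO sham kidneys. Of 9 markers of T and NK cells 4 fell in KO sham relative to WT sham and 7 in WT IRI relative to WT sham kidneys. Their score was 2.83, 2.87 and 0.46 on WT sham replicates 1, 2 and 3, so the WT sham arrays were split. It was -1.02 to -0.56 on WT IRI, -0.46 to 0.48 on KO sham and -1.48 to -0.98 on KO IRI arrays. Of 7 dendritic cell markers 3 fell in KO sham relative to WT sham and 3 in WT IRI relative to WT sham kidneys. Of 10 hepatocyte markers 2 rose and 0 fell in KO sham relative to WT sham kidneys. The part of cell numbers in the C1q, C3 and integrin values was not tested.

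**Figure D5:**
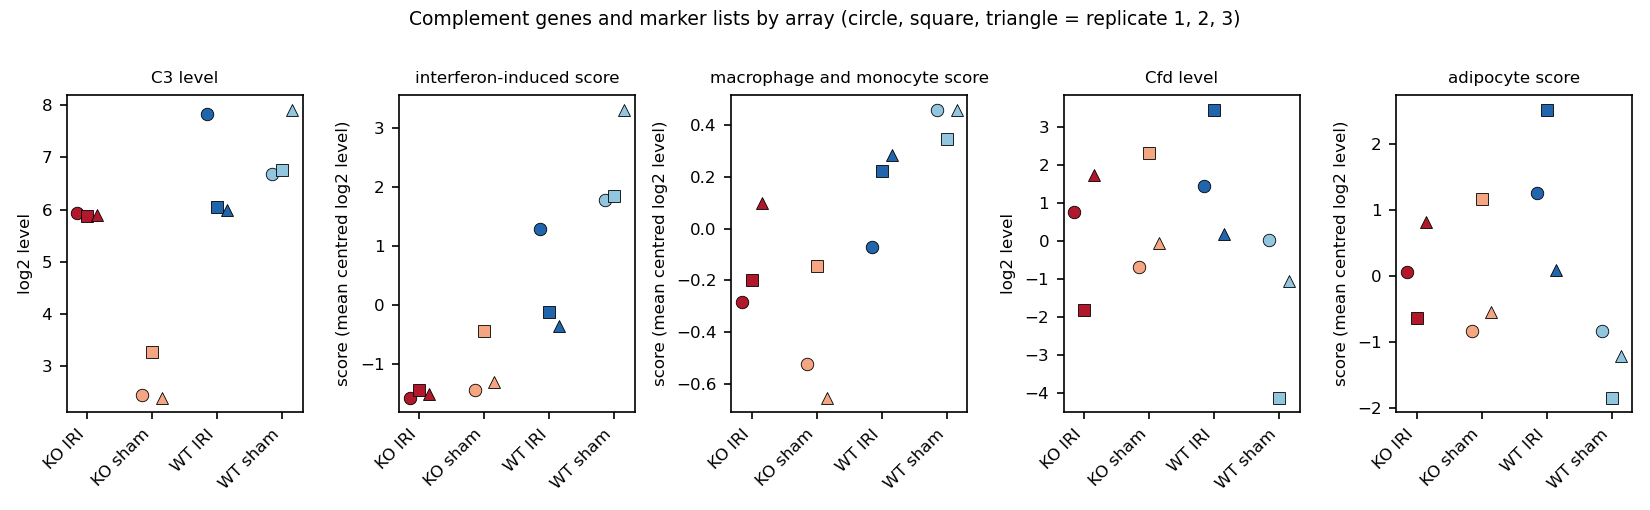
From left to right, the C3 level, the interferon-induced score, the macrophage and monocyte score, the Cfd level and the adipocyte score on each array, with KO IRI, KO sham, WT IRI and WT sham along each horizontal axis. Levels are log2 signal minus the array's 75th percentile, and scores are means of centred log2 levels of the listed genes. KO IRI arrays have C3 levels of 5.89 to 5.94 with interferon scores of -1.57 to -1.45, and Cfd and the adipocyte score share their highest array within each group.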

How the data were processed

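Total RNA of 12 kidneys was labelled with Cy3 and hybridised to one-colour Agilent arrays. Per the file headers, Feature Extraction 10.7.1.1 made the deposited processed signal, a linear intensity corrected for background within the array. The authors' deposited log2 values, used as an alternative, followed it with r of at least 0.9995 per array, and each array had a median of 5.71. The submitters' processing notes name limma, with no version.

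Control and outlier spots were left out of 62976 spots, spots of a probe averaged, and log2 taken minus the array's 75th percentile. Probes well above background on at least 3 of 12 arrays were kept (39449), and the brightest represented each gene name in the files. Between 62.9% and 68.1% of probes were well above background per array, and none was saturated. limma 3.58.1 in R 4.3.3 fitted 1 coefficient per group with 8 residual degrees of freedom, two-sided, and 3 arrays per group limit the precision. The fit was tested on simulated data. Members, lists and motifs were chosen with earlier results of these data known. Genes past the threshold in any comparison are given on every array, and of the further complement genes up to 4 per comparison by size of change. Normalization, filters, probe choice, array weights and leaving out each array were tried as alternatives. The series text calls the 3 samples of a group independent.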

Additional observations from a re-analysis of the deposited data

How the results depend on the processing

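Over 22 alternatives no call changed direction. In KO sham against WT sham kidneys 9 of 14 calls (C1qa, C1qb, C1qc, C4a, C4b, C3, Itgax, Itgb2 and Cfi) held under all 22, and in KO IRI against KO sham C3 and C8a did. None of the 9 calls in WT IRI against WT sham kidneys held under all. That count was 3 with no filter on dim probes, 2 in a fit of only the groups compared and 4 with replicate number as a block. The shares of all genes under these settings are not given here, so the lower counts are not read as particular to complement genes. The block left the other counts within 1.5 times (14 for KO sham against WT sham, 4 for KO IRI against KO sham, 0 for KO IRI against WT IRI and 0 for the interaction). Numbers did not pair the samples, since the deviations of same-numbered arrays correlated at -0.27 to 0.15. With array weights, estimated gene by gene because the default estimate did not converge (a choice made after seeing that), 23 genes passed in KO sham against WT sham, 22 in WT IRI against WT sham, 14 in KO IRI against KO sham, 4 in KO IRI against WT IRI and 11 in the interaction, while 38.2%, 34.1%, 21.9%, 7.11% and 5.14% of all genes did. Scaling by the median gave 1 for KO IRI against WT IRI. The share of all genes under that scaling is not given here, so this count is not read as particular to complement genes. That scaling moved the median of all genes by 0.14 in KO IRI against KO sham and in the interaction.

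Leaving out 1 array at a time, 9 to 15 genes passed in KO sham against WT sham, 0 to 9 in WT IRI against WT sham, 2 to 7 in KO IRI against KO sham, 0 to 3 in KO IRI against WT IRI, and 0 to 3 in the interaction. In several of these fits the share of all genes past the threshold, given above, moved as well. The ranges are therefore not read as particular to complement genes, and their cause was not tested. A random slide block and a block for scan date were not run, since each genotype lies on 1 slide and scan. A fit of only the groups compared gives no interaction.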
